A study of Mus musculus with 12 samples.

Results

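Ventricles of mouse embryos that lacked Hopx were compared with wild-type ventricles, gene by gene, on expression arrays. The 6 arrays whose titles name these genotypes, 3 per genotype, were taken from 12 arrays of the series, and the comparison covered 9667 of 18193 genes with a probe set of their own. Both groups were cardiac ventricle at embryonic day 16.5. The wild-type group carried no named mutation and the Hopx-null group is labelled as a knockout of Hopx alone. The labels give no strain, allele, deleted part, litter or sex, and they call the arrays of a group biological replicates without saying whether embryos were pooled. The other 6 arrays, 3 from Hdac2-null and 3 from double-null ventricles of the same age, lack Hdac2 in both groups and Hopx in the second, and served here as a second comparison of Hopx loss that shares no array with the first.

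Hopx is a small homeodomain protein that does not bind DNA itself. It is known in the embryonic heart as a partner of serum response factor, SRF, whose binding to CArG boxes drives muscle and growth-response genes, and as a protein that brings histone deacetylase activity, including that of Hdac2, to transcription factors such as Gata4. Genes that could answer to its loss therefore include SRF targets, cardiac transcription factors and cell cycle genes.

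Signals are linear intensity units as deposited, and values below a floor of 82.5 units were raised to it before log2 differences were formed. The share of probe sets above the floor was 37.52% to 37.9% on the 12 arrays. Correlations of log2 signal were 0.9826 to 0.9873 between wild-type arrays, 0.9851 to 0.9892 between Hopx-null arrays and 0.9826 to 0.994 across the groups. The ranges within and across the groups overlapped, and the highest value across the groups lay above every value within either group. Ventricular markers were bright in both groups, with a summed signal of 163900 to 171600 in wild type and 165400 to 169700 in Hopx-null ventricles. All 10 lung epithelial and all 9 thymic markers on the array lay at or below the floor on all 6 arrays, as did 15 of 19 skeletal muscle markers. The 3′ to 5′ ratio of Gapdh, a measure of RNA integrity, was 1.328 on the log2 scale on wild type 1 and 0.842 to 1.075 on the other 11 arrays. Xist, which coats the inactive X chromosome of female cells, measured 6016, 6130 and 9.495 units on the wild-type arrays and 4988, 8.683 and 8.703 on the Hopx-null arrays. The wild-type group thus had 2 Xist-high arrays and the Hopx-null group 1. On the Hdac2-null and double-null arrays 1 array per group was Xist-high, with 6108 and 5894 units against at most 22.22 on the rest.

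Hopx itself was the one gene whose transcript changed by the test. Its brighter probe set measured 8653, 8577 and 12220 units on the 3 wild-type arrays and 1865, 2046 and 2066 on the Hopx-null arrays. The groups did not overlap, and wild type 3 was the highest array. Hopx fell by 2.28 on the log2 scale (SE 0.11, 95% interval -2.53 to -2.03, adjusted p = 5.74e-06 by limma), which left a residual signal well above the floor on each Hopx-null array. A second Hopx probe set went from 696.5, 520.2 and 1145 units to 9.704, 12.85 and 13.25, below the floor, and also passed when all probe sets were tested separately (log2 -3.18 with the floor, adjusted p = 0.000294). The plot of Hopx by array shows a drop of both probe sets with and without Hdac2. The sources used here do not say where either probe set lies relative to the deleted part of the gene. Hdac2 measured 4717, 4604 and 5195 units in wild type and 5683, 4442 and 4586 in Hopx-null ventricles.

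**Figure D1:**
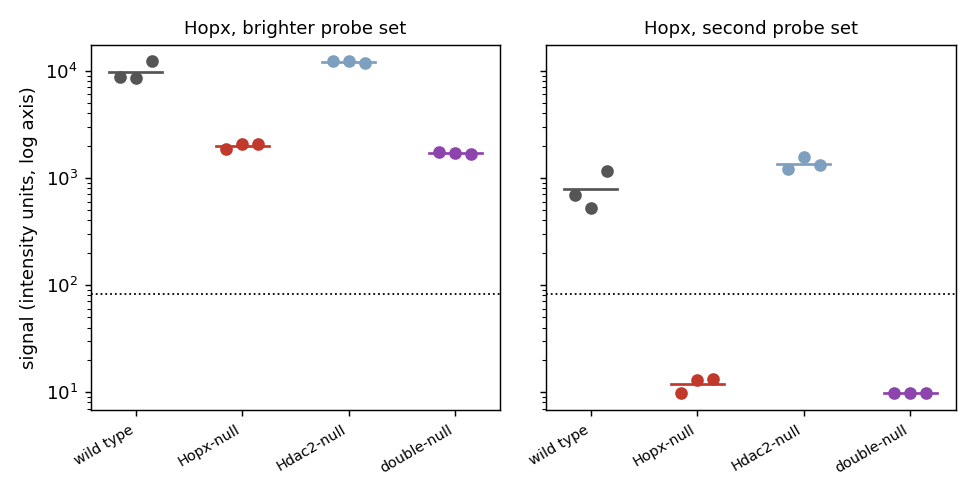
Signal of both Hopx probe sets on each of the 12 arrays (dots, log axis in intensity units), with the group mean as a bar and the floor of 82.5 units as a dotted line. The brighter probe set keeps a level of 1865 to 2066 units in Hopx-null ventricles, while the second lies at 13.25 units or below there.

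The Hopx gene lies on the minus strand of chromosome 5, and its own promoter holds a CArG box, the sequence that SRF binds. The windows below show that box beside those of 3 muscle actin and myosin genes and of the growth-response factor Egr2, because they let the comparison be read against SRF binding letters. They come from RefSeq promoter windows of 250 bases before to 50 bases after an annotated start (build GRCm38.p6), are written 5′ to 3′ on the gene's strand, and have the box in capitals. The stretches lie at chr5:77115167-77115236 (minus strand) for Hopx, chr8:123894809-123894878 (minus strand) for Acta1, chr2:114052883-114052952 (minus strand) for Actc1, chr2:156775273-156775342 (plus strand) for Myl9 and chr10:67537464-67537533 (plus strand) for Egr2.
Hopx: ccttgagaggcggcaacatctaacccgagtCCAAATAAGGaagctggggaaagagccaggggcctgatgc
Acta1: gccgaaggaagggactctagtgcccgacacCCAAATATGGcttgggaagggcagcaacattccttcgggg
Actc1: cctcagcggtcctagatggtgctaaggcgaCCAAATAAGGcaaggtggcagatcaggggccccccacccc
Myl9: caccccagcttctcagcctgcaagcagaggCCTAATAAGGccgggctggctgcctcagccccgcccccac
Egr2: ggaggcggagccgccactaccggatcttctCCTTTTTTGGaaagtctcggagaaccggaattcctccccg

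The CArG box was searched on both strands and was held by 535 of 32851 promoter windows of the same length (1.63%). Among genes tested with a window, 141 of 7865 (1.79%) held one. Of these 141 genes 61 were higher and 78 lower in Hopx-null ventricles, with a median log2 difference of -0.01 against 0.00 for all 7865. Hopx was the only one of the 141 that was called. The box was present in 10 of 43 listed SRF muscle and immediate early targets with a window (23.3%), of which 3 were higher and 7 lower and none was called. A match is only a match of letters, and its absence in a window of 300 bases says nothing of SRF binding.

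Across all genes the comparison was close to flat. Of 9667 genes tested, 1 was called at an adjusted p under 0.05 (0.0103%), which was Hopx. With no floor on low signals a dim gene, Tbrg3, was called as well (log2 -0.56, adjusted p = 0.0158 by limma). The median log2 difference was 0.00, with 4670 genes higher and 4939 lower in Hopx-null ventricles. At an unadjusted p under 0.05 stood 256 genes (2.65%), 118 of them higher and 138 lower, where a uniform spread of p would give 483. That count depended on the arrays used, with 472 genes without wild type 2, 461 without Hopx-null 2 and 103 in a fit of the 6 arrays alone. All 3 Hopx-null arrays lay above all 3 wild-type arrays for 183 genes (1.89%) and below them for 245 (2.53%), counted after the floor.

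The 95% intervals, from the fit over 12 arrays, describe the sizes of change gene by gene. They are not adjusted for the number of genes. The 95% interval of the fold lay within 1.5-fold in both directions for 8176 genes (84.6%) and within 2-fold for 9324 (96.5%). The intervals were narrower for brighter genes. Above 2000 units in wild type, 97.1% of 4188 genes had an interval within 1.5-fold, against 84.6% of 2995 genes from 500 to 2000 units, 62.5% of 1556 from 165 to 500 units and 64.9% of 928 below 165 units. The floor narrows the spread of the dimmest genes.

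**Figure D2:**
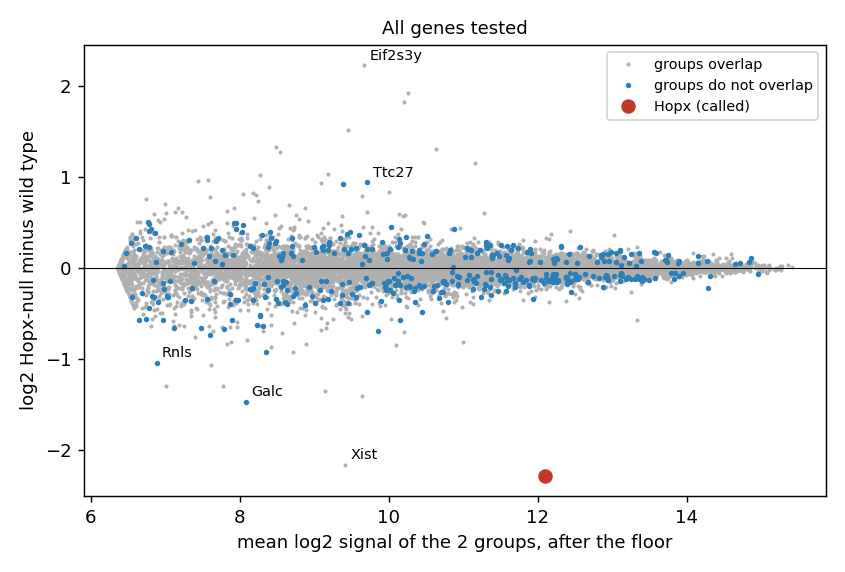
Log2 difference of Hopx-null minus wild type against the mean log2 signal of both groups for the 9667 genes tested, with genes whose groups do not overlap in blue and Hopx in red. Hopx sits at -2.28 among bright genes, and most other values past 1 or -1 belong to dimmer genes whose groups overlap.

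A 2-fold difference was passed by 19 genes, 10 higher and 9 lower, but in 16 of them the groups overlapped. Besides Hopx the groups were apart for Galc and Rnls. Galc, a lysosomal galactolipid hydrolase, measured 467.2, 479.8 and 407.6 units in wild type and 186.5, 151.4 and 152.4 in Hopx-null ventricles (log2 -1.47, SE 0.56, adjusted p = 1). On the other arrays Galc measured 406.7, 352.8 and 4.743 units in Hdac2-null and 122.2, 405.2 and 169.6 in double-null ventricles, so it also differed widely among arrays of one genotype. Rnls, the gene of renalase, was below the floor on all Hopx-null arrays and above it on all wild-type arrays, at least 2.05-fold lower (adjusted p = 1). It spread from 80.75 to 313.8 units over the Hdac2-null arrays. In a fit of only the arrays of the 2 groups compared, Galc and Rnls each had an adjusted p of 0.0761 by limma, so neither passed there.

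Several of the 19 genes took a high or a low level array by array, whatever the genotype. Tmem18 measured 2919, 298.5 and 284 units in wild type and 2731, 2746 and 1805 in Hopx-null ventricles. Polr3gl, a subunit of RNA polymerase III, measured 3220, 3600 and 307.7 units in wild type and 3215, 3376 and 3633 in Hopx-null ventricles. Paip1, a partner of poly(A)-binding protein, measured 488.5, 4762 and 437 units in wild type and 410, 8313 and 4575 in Hopx-null ventricles. In each of these the wild-type arrays alone spanned the difference between the group means. A further 3 of the 19, Xist and the Y-linked genes Eif2s3y and Kdm5d, followed the unequal number of Xist-high arrays given above. Galc, Rnls, Tmem18, Polr3gl and Paip1 were named after their values were seen.

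The genes with the smallest p after Hopx form 2 short lists, 12 higher and 11 lower, and none of the 23 passed (adjusted p 0.726 to 1). The smallest p was that of Klhl32, a Kelch-like gene, at 124.1, 138.9 and 107.3 units in wild type and 36.08, 35.95 and 75.82 in Hopx-null ventricles. All Hopx-null values were below the floor, so Klhl32 was at least 1.49-fold lower (log2 -0.57, SE 0.10, adjusted p = 0.726). It was also low with Hopx present, at 40.32, 14.29 and 78.37 units on the Hdac2-null arrays. Ccdc184, a coiled-coil gene, measured 123.4, 146.9 and 119.5 units in wild type and 61.5, 100.1 and 66.3 in Hopx-null ventricles (log2 -0.56, SE 0.11). The values of 61.5 and 66.3 were below the floor, and with no floor the difference was log2 -0.80. Asb18, an ankyrin-repeat gene with a SOCS box, measured 310.9, 418.3 and 399.9 units against 247.2, 237.9 and 239.5 (log2 -0.63, SE 0.16). Its Hdac2-null values, 267.3 to 272.9 units, were also below every wild-type value.

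Further genes of the lower list differ in their known roles. Dpp4, a membrane peptidase, measured 1684, 1171 and 1344 units in wild type and 1067, 950.2 and 796.6 in Hopx-null ventricles (log2 -0.57, SE 0.15). The groups did not overlap. Scn7a, a sodium channel relative, measured 1014, 1070 and 896.1 units against 673.9, 604.1 and 881 (log2 -0.48, SE 0.14). Dtx4, a Deltex ubiquitin ligase of the Notch pathway, measured log2 -0.37 (SE 0.10), Lnx1, another ubiquitin ligase, -0.34 (SE 0.10), Smim3, a small membrane protein, -0.41 (SE 0.11) and Sec16a, a scaffold of the endoplasmic reticulum exit sites, -0.16 (SE 0.05).

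In the higher list Ttc27, a tetratricopeptide-repeat gene, had the largest difference. It measured 507.3, 642.7 and 681 units in wild type and 817.7, 1647 and 1173 in Hopx-null ventricles (log2 0.94, SE 0.24, adjusted p = 1), and the groups did not overlap. Parp3, a DNA-damage-responsive ADP-ribosyltransferase, measured 307.4, 542.3 and 308.6 units against 501.3, 661.1 and 621.9 (log2 0.67, SE 0.20), where wild type 2 exceeded Hopx-null 1. Each of the 3 same-numbered pairs was higher without Hopx, but the labels do not name the arrays as pairs. A dimmer Parp3 probe set gave log2 0.06 (SE 0.10). Gbe1, the glycogen branching enzyme, measured 2210, 2543 and 2514 units against 2927, 2789 and 2934 (log2 0.25, SE 0.07). Manf, a secreted factor of endoplasmic reticulum stress, measured log2 0.44 (SE 0.14), Lonp2, the peroxisomal Lon protease, 0.32 (SE 0.10), and Denr, a factor of translation re-initiation, 0.26 (SE 0.08). Ftcd, a folate-dependent enzyme, measured 0.50 (SE 0.14), Serpini1, the serpin neuroserpin, 0.44 (SE 0.13), Ttll1, a tubulin glutamylase, 0.44 (SE 0.13), Rccd1 0.43 (SE 0.11), Zfp708 0.51 (SE 0.15) and 5430416N02Rik 0.38 (SE 0.11).

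For 7 of the 23 genes the wild-type arrays stood apart from all the other 9, those with Hopx present included. These were Ttc27, Ftcd, Ttll1, Klhl32, Asb18, Dtx4 and Lnx1. Ftcd measured 337.4, 408.8 and 322.3 units in Hdac2-null ventricles, above its wild-type values of 203.6, 243.4 and 185. For another 7 genes, Rccd1, Gbe1, 5430416N02Rik, Serpini1, Ccdc184, Smim3 and Gpm6a, it was the Hopx-null arrays that stood apart from all the rest. Over all genes the shares were 0.341% for wild type and 0.807% for Hopx-null, but the choice of the 23 genes favours both patterns, and nothing is read from the excess.

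These 23 genes were then read on the other 6 arrays, whose levels the first comparison does not use. Their spread did enter the p-values by which the genes were chosen, because 1 fit covered the 12 arrays. In that comparison Hopx was the one gene called among 9667 (0.0103%), and 1097 genes had an unadjusted p under 0.05 (11.3%). With array weights 951 genes were called there, so that count rests on how the arrays are weighted. The direction was the same for 17 of the 23 genes, 9 of 12 higher and 8 of 11 lower, where 54.5% of all genes had the same sign in both comparisons. An unadjusted p under 0.05 in the same direction was reached by 3 of them, and none passed after adjustment. Groups were apart in the same direction for 3 of the 12 higher genes, Gbe1, Ttll1 and Parp3, and for 3 of the 11 lower genes, Ccdc184, Dpp4 and Upk3b. Over all genes 12.9% had double-null arrays all above and 12.7% all below the Hdac2-null arrays, the shares against which these counts of 3 stand. The median size of the log2 difference was 0.44 in the first comparison, where the genes were chosen, and 0.14 in the second.

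Values in the second comparison ranged from near the first to its opposite. Parp3 measured 286.5, 283.1 and 256.5 units in Hdac2-null and 453.5, 403.8 and 409.1 in double-null ventricles (log2 0.62, SE 0.20, adjusted p = 0.368), close to its first value. Dpp4 measured 1174, 1264 and 1193 units against 878, 991.8 and 1099 (log2 -0.30, SE 0.15, adjusted p = 0.479), and over the 12 arrays each value with Hopx present exceeded each without it. Zfp708 measured 106.9, 72 and 73.95 units against 108.4, 106.5 and 141.8, which overlapped (log2 0.39, SE 0.15, adjusted p = 0.388 by limma). The values of 72 and 73.95 were below the floor, as was wild type 3 in the first comparison at 78.18 units. Ttc27 measured 685.1, 777.1 and 775.3 units against 816.6, 697.9 and 1073, which overlapped (log2 0.19, SE 0.24, adjusted p = 0.803). Ftcd (log2 -0.27, SE 0.14, adjusted p = 0.486) and Denr (-0.17, SE 0.08, adjusted p = 0.435) were lower in all 3 double-null arrays, against their first direction.

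**Figure D3:**
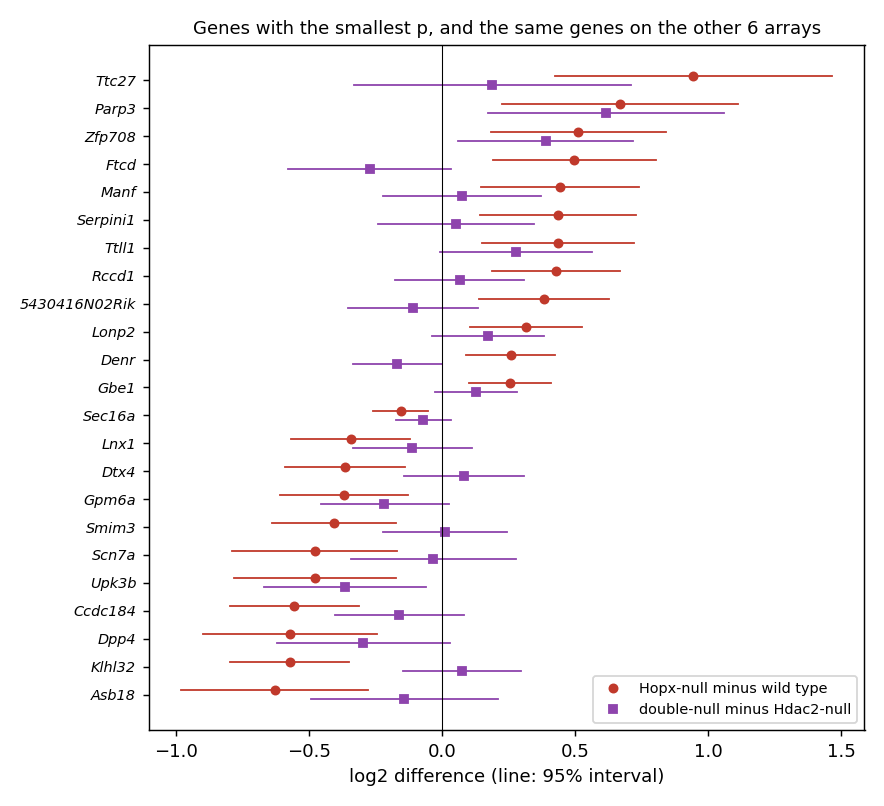
Log2 differences with 95% intervals for the 23 genes of smallest p in Hopx-null against wild type (red), and for the same genes in double-null against Hdac2-null ventricles (purple). The red values were used to choose the genes; 17 of the 23 purple values lie on the same side of 0, most of them nearer to it.

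The difference between both effects of Hopx loss was tested as an interaction. At an adjusted p under 0.05 limma called 0 of 9667 genes (0%), and 404 had an unadjusted p under 0.05. Without wild type 3 the interaction called 1 gene, Hopx itself (log2 -0.71, adjusted p = 0.0449). For the 23 genes its adjusted p was 0.942 to 0.996, so for none of them did the difference between the backgrounds pass the test. Over 9666 genes without Hopx, the log2 differences of both comparisons had a Pearson r of 0.21 and a Spearman rho of 0.17, a description across genes that are not independent.

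Averaging both comparisons, 6 arrays with Hopx against 6 without, again called Hopx alone (1 gene, 0.0103%). Without wild type 2 Parp3 was called as well (mean effect log2 0.78, adjusted p = 0.0322). The genes of next smallest p did not pass. Uba3, a subunit of the NEDD8-activating enzyme, measured 5345, 5006 and 5267 units in wild type and 5932, 5580 and 5835 in Hopx-null ventricles, and its mean effect was log2 0.21 (SE 0.03, adjusted p = 0.332). Another Uba3 probe set gave log2 -0.02 in Hopx-null against wild type and the remaining one 0.03. Tgfbr3, the betaglycan co-receptor of TGF-beta, measured 5633, 5671 and 5876 units in wild type and 4742, 5553 and 4970 in Hopx-null ventricles (mean effect log2 -0.20, SE 0.04, adjusted p = 0.472). Ddn, the gene of dendrin, had the largest mean effect of those next in order, log2 -1.03 (SE 0.21, adjusted p = 0.472), with 358.1, 448.1 and 567.6 units in wild type and 223.1, 267.3 and 227.5 in Hopx-null ventricles. Gas2, a growth-arrest gene of the cytoskeleton, had a mean effect of 0.43 (SE 0.09, adjusted p = 0.472), and Peg12, an imprinted gene, had one of 0.39 (SE 0.08, adjusted p = 0.472). In Hopx-null against wild type Peg12 measured only 0.20 (SE 0.11), and the groups overlapped. It measured 138.1, 131.2 and 131.5 units in Hdac2-null and 203, 181.1 and 217.7 in double-null ventricles.

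The tested genes nearest to Hopx on chromosome 5 were examined because linked genes are inherited together with a targeted allele. Genes that were not tested are skipped in this order. Of 20 tested genes, 10 on each side, 13 were higher and 7 lower in Hopx-null ventricles, with log2 differences from -0.10 to 0.29 and a median of 0.04. None was called, and in none were the groups apart after the floor. Rest, a transcriptional repressor and the next tested gene on one side, measured log2 -0.10 (SE 0.07), and Igfbp7, a secreted binding protein, 0.21 (SE 0.16). Tecrl, a cardiac enoyl reductase relative, had the smallest p (log2 0.29, SE 0.12, adjusted p = 1). In the second comparison the groups were apart and higher without Hopx for Clock, Paics, Thegl, Tecrl, Cenpc1 and Ythdc1. They were apart and lower for Kdr, Ppat, Rest, Noa1 and Uba6. Over all genes 12.9% and 12.7% were apart in those directions. There Tecrl measured log2 0.35 and Rest -0.15, and none of the 20 genes was called. The cause of these differences was not tested.

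The next tested gene on the other side, Thegl, was dim but ordered by Hopx genotype. It measured 18.04, 20.2 and 4.141 units in wild type and 36.03, 117.6 and 47.11 in Hopx-null ventricles. On the other arrays it measured 4.136, 4.126 and 4.136 units in Hdac2-null and 120.1, 107.2 and 82.67 in double-null ventricles. Each of the 6 arrays without Hopx was above each of the 6 with it, but only 4 arrays exceeded the floor of 82.5 units, 1 of them Hopx-null. With the floor the difference was log2 0.17 in Hopx-null against wild type (SE 0.15, adjusted p = 1) and the mean effect 0.24 (SE 0.11, adjusted p = 0.571). With a floor of 16 units the mean effect of Hopx loss on Thegl passed (log2 2.19, adjusted p = 0.0138 by limma), and with no floor it did so too (3.49, adjusted p = 0.0484). Thegl is the Theg-like gene, named for a relative expressed in male germ cells, and was singled out after its values were seen. Of all genes tested 0.424% separated the arrays with and without Hopx in this way.

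Markers of the epicardium and mesothelium, the cell layer that covers the heart, held 2 of the 23 genes of smallest p. The list had 13 of the 9667 genes tested. It was chosen with earlier results of these data known, so nothing is read from that count. Upk3b, a uroplakin of mesothelial cells, measured 1800, 1427 and 1765 units in wild type and 1391, 1111 and 1084 in Hopx-null ventricles (log2 -0.48, SE 0.14, adjusted p = 1). A second Upk3b probe set gave log2 -0.46 (SE 0.17). Gpm6a, a membrane glycoprotein, measured 1400, 1364 and 1705 units against 1163, 1121 and 1161 (log2 -0.37, SE 0.11, adjusted p = 1), and its second probe set gave -0.31 (SE 0.14). In neither gene did the groups overlap. Upk1b, another uroplakin, measured 700.8, 325.8 and 622.6 units against 460.9, 265.9 and 329.2 (log2 -0.61, SE 0.27), with overlap through wild type 2. Upk1b was lower in Hopx-null ventricles in each of the 3 same-numbered pairs, but the labels do not name the arrays as pairs.

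On the other 6 arrays Upk3b was again lower without Hopx in each array, at 1609, 1625 and 1628 units in Hdac2-null and 1181, 1511 and 1117 in double-null ventricles (log2 -0.37, SE 0.14, adjusted p = 0.384). Gpm6a there measured log2 -0.22 (SE 0.11, adjusted p = 0.481) and Upk1b -0.30 (SE 0.27, adjusted p = 0.716). Of the list's 13 members tested, 4 were higher and 8 lower in that second comparison (median log2 -0.01). Over the whole list, of 13 members tested, 5 were higher and 8 lower in Hopx-null ventricles (median log2 -0.03 against 0.00 for all genes), 4 had an unadjusted p under 0.05, a share of all genes given above as 2.65%, and 0 were called by limma. Tcf21, a factor of epicardial descendants, was among those 4 but was higher without Hopx. It measured 1330, 1209 and 1272 units in wild type and 1618, 1369 and 1410 in Hopx-null ventricles (log2 0.20, SE 0.09). Tbx18, another marker of the list, measured 0.19 (SE 0.10), and Wt1, the classical epicardial factor, -0.03 (SE 0.16). The groups were apart for 2 lower members and 1 higher member, where 2.53% and 1.89% of all genes were apart in those directions. The keratins Krt8, Krt19 and Krt7 lay at or below the floor on all 6 arrays, and the summed signal of the list was 16160 to 18490 in wild type and 15560 to 17930 in Hopx-null ventricles. In bulk tissue, fewer cells of a type and less RNA per cell cannot be told apart.

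**Figure D4:**
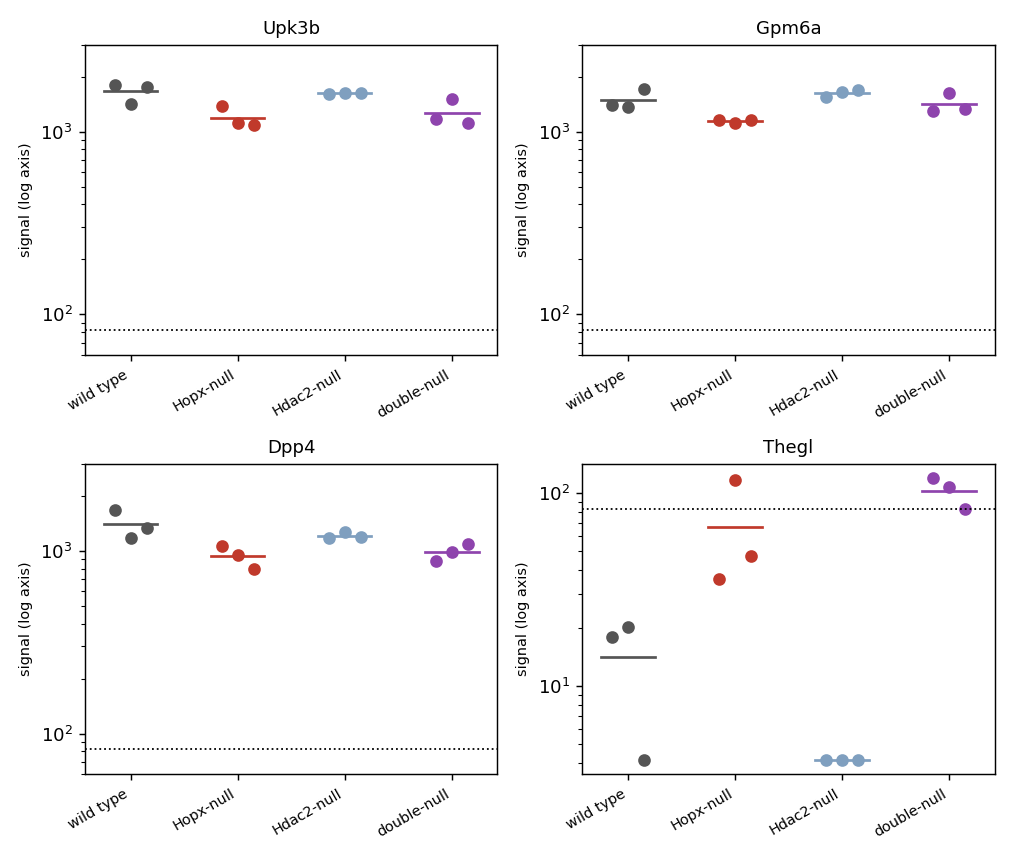
Signal of Upk3b, Gpm6a, Dpp4 and Thegl on each of the 12 arrays (dots, log axis in intensity units), with group means as bars and the floor of 82.5 units as a dotted line. Upk3b and Dpp4 are lower in each background without Hopx, while Thegl is at 20.2 units or below with Hopx and at 36.03 units or above without it.

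Transcripts of proteins known to work with Hopx did not pass the test. Srf measured 5721, 4712 and 6273 units in wild type and 6118, 4743 and 5053 in Hopx-null ventricles (log2 -0.07, 95% interval -0.38 to 0.24). Gata4 measured 5089, 5593 and 6264 units against 5729, 5839 and 5187 (-0.01, interval -0.18 to 0.15). The SRF coactivator Myocd measured -0.04 (interval -0.31 to 0.23), Nkx2-5 -0.12 (SE 0.13) and Tbx5 -0.40 (SE 0.23). Without wild type 1 the Tbx5 difference was -0.08, and without wild type 3 it was -0.6. Of 13 partners and cofactors tested, Hopx included, 3 were higher and 10 lower, and Hopx alone was called.

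Muscle targets of SRF were evenly split. Of 33 tested, 17 were higher and 16 lower in Hopx-null ventricles, with a median log2 difference of 0.00, and in none were the groups apart. The cardiac actin Actc1 measured 37820, 37860 and 37970 units in wild type and 37870, 36080 and 37870 in Hopx-null ventricles. The skeletal actin Acta1 spread from 664.6 to 2345 units over the wild-type arrays and from 1122 to 1436 over the Hopx-null arrays, so that its 95% interval ran from -1.49 to 1.08. Myl9, a regulatory myosin light chain, measured log2 0.14 (SE 0.15), Myh11, the smooth muscle myosin, 0.66 (SE 0.54) and the filamin Flna 0.17 (SE 0.10).

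Immediate early genes, which SRF switches on after growth signals, were also split, with 10 of 20 higher and 10 lower (median 0.02). Groups were apart for a pair of related zinc finger factors, both lower, where 2.53% of all genes were apart in that direction. Egr2 measured 203.6, 191.5 and 134.7 units in wild type and 134.3, 89.65 and 112.2 in Hopx-null ventricles (log2 -0.65, SE 0.27, adjusted p = 1), and Egr1 3447, 2839 and 3010 units against 2310, 2690 and 2834 (-0.25, SE 0.16, adjusted p = 1). In the second comparison Egr2 measured 83.44, 185.9 and 106.9 units in Hdac2-null and 130.7, 133.8 and 146.2 in double-null ventricles, which overlapped. There 5 of the 20 immediate early genes were higher and 15 lower (median -0.15). Fos measured -0.15 (SE 0.51).

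Genes of contraction and of fetal stress differed little in most members, and none was called. Of 32 sarcomere genes 21 were higher and 11 lower (median 0.02), and the 95% interval lay within 1.5-fold for 30 of them. Myl4, the atrial essential light chain, measured 18980, 22200 and 23590 units in wild type and 18240, 18530 and 18670 in Hopx-null ventricles (log2 -0.22, SE 0.07, adjusted p = 1). The groups were apart by a small margin at wild type 1, where 2.53% of all genes were apart in that direction. The natriuretic peptide Nppa measured 28860, 26430 and 16670 units against 26200, 24350 and 27480 (log2 0.15, interval -0.29 to 0.60), and Nppb 0.07 (interval -0.31 to 0.45). Of 16 fetal and stress genes 13 were higher and 3 lower, with a median of 0.02. The 26 ion channel and conduction genes split evenly (median 0.00), and of 22 calcium handling genes 10 were higher and 12 lower (median -0.02).

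Atrial markers had one of the lowest list medians. Of 14 tested, 5 were higher and 9 lower (median log2 -0.15), and the groups were apart for Myl4 and for Pam, the peptide amidating enzyme (8099, 7869 and 8184 units against 7404, 6202 and 7450, log2 -0.20, SE 0.07, adjusted p = 1), where 2.53% of all genes were apart in that direction. Without Hopx-null 2 the list median was -0.04, and without Hopx-null 3 it was -0.24. Sln, a regulator of the calcium pump, ranged from 519.9 to 1616 units in wild type and from 41.28 to 795.6 in Hopx-null ventricles. In the second comparison 8 atrial markers were higher and 6 lower (median 0.01). The summed signal of the list was 81200 to 93900 in wild type and 76940 to 87550 in Hopx-null ventricles. The share of atrial tissue in the samples was not tested.

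Cell cycle genes were found in both directions, and none passed. Of 31 genes of the G1/S transition and replication 14 were higher and 17 lower (median -0.02), and of 34 genes of mitosis 21 were higher and 13 lower (median 0.02), with none called and no groups apart. The cyclin Ccnd2 measured 9873, 11580 and 11530 units in wild type and 9717, 11370 and 11550 in Hopx-null ventricles (log2 -0.02, interval -0.18 to 0.15). Cdk4, its partner kinase, measured 6912, 6338 and 7399 units against 7780, 6784 and 5698 (-0.04, interval -0.26 to 0.19). Of 12 inhibitors of the cycle 2 were higher and 10 lower (median -0.08), among them Cdkn1c at -0.19 (SE 0.22). In the second comparison these inhibitors split 6 and 6.

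Among the deacetylases and their complexes, 14 of 27 genes were higher and 13 lower (median 0.00). Sin3a, a corepressor scaffold, was the member with groups apart, at log2 -0.23 (SE 0.11, adjusted p = 1). Of all genes 2.53% were apart in that direction. Of 17 genes around Akt and the phosphoinositide phosphatase Inpp5f, 3 were higher and 14 lower (median -0.04). Inpp5f measured 2471, 1540 and 2625 units in wild type and 1777, 1562 and 1738 in Hopx-null ventricles, so wild type 2 lay with the Hopx-null arrays (log2 -0.35, interval -0.80 to 0.10). Irs1, the insulin receptor substrate, measured -0.16 (SE 0.07) with groups apart, as were 2.53% of all genes in that direction.

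Signalling lists had medians near 0. Of 28 Wnt pathway genes 8 were higher and 19 lower (median -0.04), with the co-receptor Lrp6 at log2 -0.14 (SE 0.06) and the transcription factor Tcf7l1 at -0.39 (SE 0.17). Of 31 genes of the BMP and TGF-beta pathways 14 were higher and 16 lower (median -0.01). Bmp5, a BMP ligand, measured 599.9, 36.74 and 455.1 units in wild type and 18.34, 362.6 and 22.66 in Hopx-null ventricles, so high and low arrays occurred in both groups. Of 13 Notch pathway genes 5 were higher and 8 lower (median -0.03).

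Metabolic genes were higher in most members by small amounts, and none passed. Of 40 oxidative phosphorylation genes 33 were higher and 7 lower (median log2 0.03), and all 40 intervals lay within 1.5-fold. The groups were apart in Atp5o alone (0.07, SE 0.03, adjusted p = 1), where 1.89% of all genes were apart in that direction. Of 27 fatty acid oxidation genes 20 were higher and 7 lower (median 0.04). In the second comparison the same lists measured medians of -0.01 and -0.07, with 18 of 40 and 7 of 27 higher. Of 16 imprinted growth genes 3 were higher and 13 lower (median -0.06), and the smallest p belonged to the growth factor receptor adaptor Grb10 at -0.08 (SE 0.04).

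Markers of other cell types did not pass the test either. Of 13 leukocyte and macrophage markers tested 10 were lower and 3 higher (median -0.12), and the groups were apart in 3, all lower, where 2.53% of all genes were apart in that direction. Without wild type 1 the list median was 0.05, and without wild type 3 it was -0.22. Csf1r, the macrophage growth factor receptor, measured 4744, 4352 and 4689 units in wild type and 3898, 4142 and 4281 in Hopx-null ventricles (log2 -0.16, SE 0.07, adjusted p = 1). Lysozyme 2, Lyz2, measured 197.5, 180.4 and 319.8 units against 172, 154.4 and 109.8, and the adaptor Tyrobp -0.15 (SE 0.10). The summed signal of that list was 25800 to 34110 in wild type and 27350 to 29450 in Hopx-null ventricles, and 8 of 21 markers, Ptprc and Cd68 among them, were at or below the floor on all 6 arrays. In the second comparison 9 of the 13 were higher. Of 27 endothelial markers 11 were higher and 16 lower (median -0.02), and of 24 fibroblast and matrix genes 17 were higher and 7 lower (median 0.02).

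**Figure D5:**
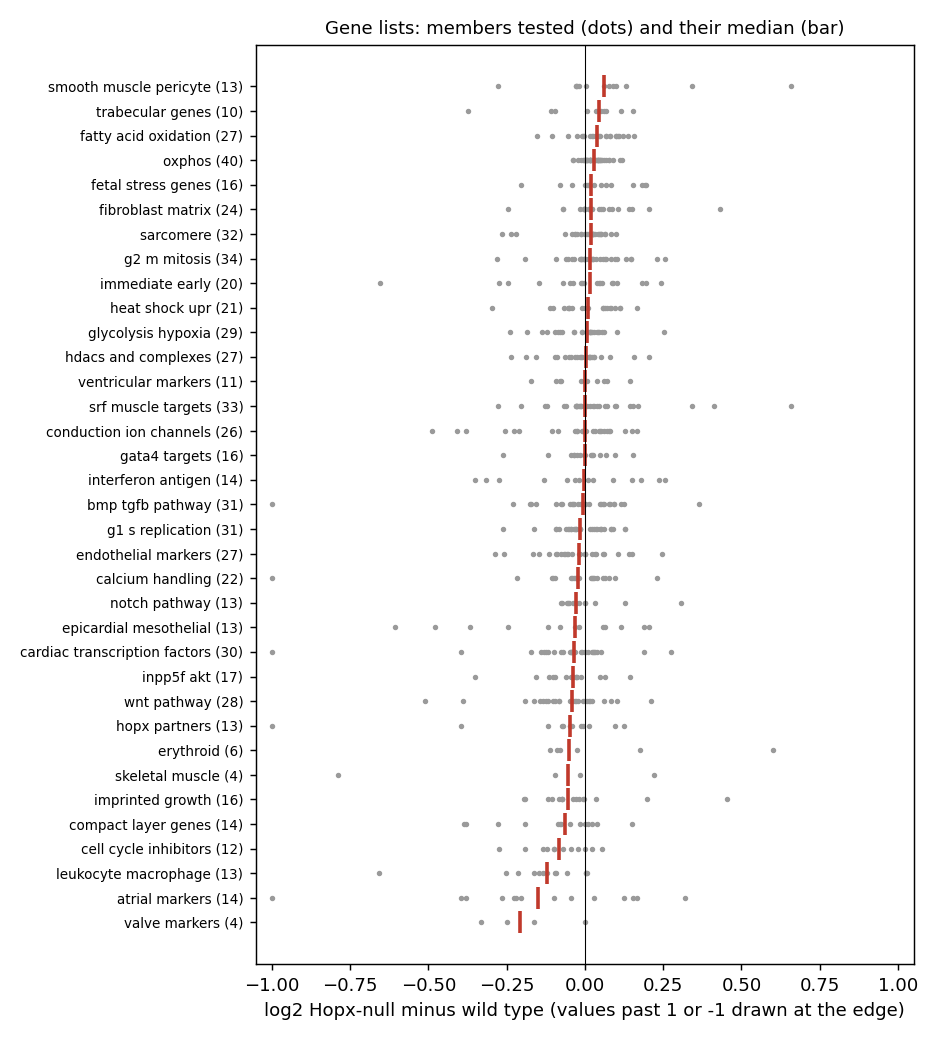
Log2 difference of Hopx-null minus wild type for the tested members (dots) of 35 gene lists with at least 4 tested genes, with each list's median as a red bar and the number tested in brackets. The list of sex-linked genes is not drawn. Of the values drawn, 5 past 1 or -1 are placed at the edge. List medians run from -0.21 for valve markers to 0.06 for smooth muscle and pericyte markers, around 0.00 for all genes.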

How the data were processed

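Total RNA was hybridised to single-colour arrays, and the authors deposited a linear intensity for each of 45101 probe sets on each array. MAS5, without a version, appears in the submitters' processing notes, but the values have the shape of a model-based, quantile-normalised summary, so the method behind the deposited intensities is uncertain. They were used with no further normalisation.

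Signals below 82.5 units (0.1 times the mean 2% trimmed mean of the arrays) were raised to that floor before log2. Of 34945 probe sets with 1 gene, the one with the highest mean was kept for each of 18193 genes. Of these, 12433 reached the 40th percentile (4.76 units), and 2766 at the floor on all 12 arrays were left out. Array columns of no known sample numbered 0. One model with a coefficient per genotype was fitted over 12 arrays with limma 3.58.1 in R 4.3.3 (8 residual degrees of freedom, intensity trend, Benjamini-Hochberg adjustment within each comparison). The fit was tested on simulated data. The mean of both Hopx comparisons and the interaction came from the same fit. A gene whose Hopx-null arrays were all at or below the floor and whose wild-type arrays were all above it is given as at least N-fold lower. The 3 arrays per group limit the precision (median SE 0.11 on the log2 scale).

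Named genes were Hopx, its main partners and a few cardiac and cell cycle genes, called genes, the 12 genes of smallest p per direction, up to 4 of smallest p from each of 41 gene lists, 3 near Hopx and 5 per direction in the mean effect. Other members of a list are named as examples, chosen after their values were seen. Members and lists were chosen with earlier results of these data known.

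Deviations from the group mean correlated across genes between wild-type and Hopx-null arrays of one number (r of 0.42, 0.42 and 0.15). The numbers were therefore read as possible pairs, but the main fit did not use them. The pairing comes from this check of the data, not from the labels. P-values, SEs and intervals in the Results come from fits without pairing. With the number as a block, 308 genes had an unadjusted p under 0.05 by limma over 12 arrays, against 256. Over the 6 arrays compared the count was 305, against 103 without the block. P-values measure the spread between these samples.

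Alternatives covered the floor, filter, normalisation, array weights, spread model, pairing, sex, probe sets and leaving out each array. Genome coordinates come from the RefSeq promoter table.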

Additional observations from a re-analysis of the deposited data

How the results depend on the processing

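Hopx was called in Hopx-null against wild type under all 30 alternatives run, with log2 from -2.73 (mean of probe sets) to -2.11 (without wild type 3). The number of genes called stayed at 1 except with no floor (2, adding Tbrg3 at log2 -0.56, adjusted p = 0.0158 by limma) and with every probe set tested (2, both of them Hopx). With the replicate block the count was 1 over 12 arrays (Hopx log2 -2.28, adjusted p = 7.46e-05) and 1 over the 6 arrays compared (adjusted p = 0.0225), and the block changed no other call. The log2 Xist signal as a covariate left Hopx at -2.33. Leaving out each array gave 1 call throughout in this comparison, 0 to 1 in the interaction and 1 to 2 in the mean effect of Hopx loss. The interaction call, without wild type 3, was Hopx itself (log2 -0.71, adjusted p = 0.0449), and the added call of the mean effect, without wild type 2, was Parp3 (log2 0.78, adjusted p = 0.0322). The mean effect also had 2 calls with no floor and 2 with a floor of 16 units, both adding Thegl, and 2 with every probe set. Double-null against Hdac2-null had 951 calls with array weights and 3 with every probe set. Of the log2 differences of named genes under these alternatives, 5339 kept their direction and 109 changed sign, in genes that were not called. For list medians 1027 values moved by less than the spread and 44 by more. The cause of these changes was not tested.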
